A study of Homo sapiens with 4 samples.

Results

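ACP5, AP1S2, ASAH1, BEST1 and CABLES1 are protein-coding genes linked to the transcription factor MITF or to the melanocytic state of pigment cells, and their RNA was followed in A375 melanoma cells with and without the BRAF inhibitor vemurafenib. They were chosen by name for that link, with earlier results of these data known. They are 5 of the 2864 genes with values in the table used here. All 5 were read in every library, with 180 to 1853 reads per gene, and all passed the filter on low values in every comparison. CABLES1 and ASAH1 were high in the untreated parental cells and in the cells given vemurafenib for 48 h, and low in the resistant cells and in the solvent control. AP1S2 showed the same split in a weaker form, BEST1 the opposite split, and ACP5 was lowest in the untreated cells and highest after vemurafenib.

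MITF is the master regulator of the melanocyte lineage and binds short E-box sequences near its target genes, among them genes for pigment enzymes, melanosomes, lysosomes and survival. In BRAF-mutant melanoma, its activity is known to shift with BRAF inhibition, and melanoma cells are described along a range from a pigmented, MITF-high state to a dedifferentiated, MITF-low state. The 5 genes have different tasks. ACP5 and ASAH1 encode lysosomal enzymes, AP1S2 a subunit of a clathrin adaptor that sorts cargo at the Golgi and endosomes, BEST1 a chloride channel of the retinal pigment epithelium, and CABLES1 a protein that binds cyclin-dependent kinases.

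A375 is a human melanoma cell line, and total RNA of 4 conditions was sequenced, with 1 library per condition. All libraries are labelled wild type. The study used these cells to examine vemurafenib resistance in BRAF-mutated melanoma, so the label is not read here as wild-type BRAF. A375P was the parental line without treatment. A375R was a vemurafenib-resistant strain raised in the study's laboratory by stepwise higher doses and kept under the drug. A375+DMSO received the solvent DMSO at 1‰ and A375+VEM received vemurafenib at 2 μM, both for 48 h. The study set A375R against A375P for lasting resistance (the resistant pair below) and A375+VEM against A375+DMSO for the acute response (the vemurafenib pair). With no second library of any condition, differences could not be checked against replicates and carry no p-value, and cells with less of an RNA cannot be told apart from fewer cells with it.

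The table used here covers gene names up to CAC in alphabetical order, so MITF itself, MLANA, PMEL and TYR were not analysed here. Its genes carried 8.48% to 8.94% of the TPM of a library, where TPM corrects the reads of a gene for its length and for the size of the library, so levels of different genes can be compared on it. All 4 libraries carry the same batch label. Of the melanoma markers in the table, APOE was at 11.3 to 26.3 TPM and BCL2A1 at 4.24 to 37.5 TPM. In contrast, BIRC7 was at 0.0944 to 1.66 TPM and ABCB5 at 0 to 0.0978 TPM. These 4 markers thus went different ways, and the name as melanoma cells rests on the sample labels. Of 9 markers of other cell types, 3 or 4 had 0 reads in each library and those other than ALB summed to 0.481 to 1.64 TPM, with AHSP, of red cells, at 0 reads in all 4. ALB, a hepatocyte gene, was at 46.4 to 64.5 TPM in all 4 libraries. The part of these markers in the results was not tested.

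The E-boxes that MITF binds were searched in the promoters of the 5 genes, since the genes were chosen for their link to it. The RefSeq promoter table (GRCh38.p14) gives windows of 300 bases, from 250 before a transcription start to 50 after it, and held 8 windows for 3 of the 5 genes, ACP5, AP1S2 and CABLES1. ASAH1 and BEST1 have no entry. CACGTG, the palindromic E-box, CATGTG, and the longer forms TCACGTG and TCATGTG that contain them were searched on both strands. CACGTG was found in 4 of the 8 windows, in 7.26% of all 35116 windows and in 9.36% of the 2372 windows of genes with values here. Windows of the same gene are not independent, and ACP5 windows 1 and 2 overlap. CATGTG was found in ACP5 windows 3 and 4 and in CABLES1 window 3. It was in 11.1% of all windows and in 9.36% of the windows of genes with values here. TCACGTG was in 3.71% and 5.06% of these windows, in the same order, and TCATGTG in 2.92% and 2.36%. The 4 windows with CACGTG are shown, with every match in capitals. ACP5 window 3, which holds CATGTG without CACGTG, is not shown. The AP1S2 window is chrX:15854764-15855063 on the minus strand. Of 3 CABLES1 windows, number 2 is chr18:23135235-23135534 and number 3 is chr18:23155575-23155874, both on the plus strand. Number 4 of the ACP5 windows is chr19:11577596-11577895 on the minus strand.
AP1S2: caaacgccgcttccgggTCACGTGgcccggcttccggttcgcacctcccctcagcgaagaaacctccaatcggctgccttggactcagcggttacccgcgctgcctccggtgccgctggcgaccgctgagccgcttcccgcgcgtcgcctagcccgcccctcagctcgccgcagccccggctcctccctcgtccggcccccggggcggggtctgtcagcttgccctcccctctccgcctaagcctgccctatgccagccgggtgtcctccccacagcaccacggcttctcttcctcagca
CABLES1 window 2: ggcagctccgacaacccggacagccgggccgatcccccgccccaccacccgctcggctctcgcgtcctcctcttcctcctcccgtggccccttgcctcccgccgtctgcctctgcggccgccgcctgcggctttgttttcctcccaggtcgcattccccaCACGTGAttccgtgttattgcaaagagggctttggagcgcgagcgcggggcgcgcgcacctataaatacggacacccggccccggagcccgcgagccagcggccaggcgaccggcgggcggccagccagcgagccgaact
CABLES1 window 3: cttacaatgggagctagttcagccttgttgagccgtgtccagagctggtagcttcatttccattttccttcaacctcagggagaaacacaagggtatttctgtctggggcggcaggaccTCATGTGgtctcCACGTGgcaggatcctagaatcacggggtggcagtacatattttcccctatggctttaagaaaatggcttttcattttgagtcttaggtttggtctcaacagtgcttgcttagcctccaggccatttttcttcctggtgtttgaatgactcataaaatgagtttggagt
ACP5 window 4: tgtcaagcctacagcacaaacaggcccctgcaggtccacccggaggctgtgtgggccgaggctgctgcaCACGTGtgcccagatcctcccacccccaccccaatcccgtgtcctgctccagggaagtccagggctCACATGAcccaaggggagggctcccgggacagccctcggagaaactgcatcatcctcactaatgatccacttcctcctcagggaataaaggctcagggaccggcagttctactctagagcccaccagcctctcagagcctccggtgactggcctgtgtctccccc

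In these windows CACGTG lay at positions -232 to -227 from the start in AP1S2, at -90 to -85 in CABLES1 window 2, at -119 to -114 in CABLES1 window 3 and at -181 to -176 in ACP5. The AP1S2 match and that of CABLES1 window 2 are preceded by T on 1 strand and so are also TCACGTG. CABLES1 window 3 and ACP5 window 4 also hold TCATGTG. A match describes letters in a window and not a bound site, and which of the starts is used in A375 cells was not tested.

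The levels differed most for CABLES1, whose highest library was 4.52-fold above its lowest, and least for AP1S2 and BEST1, at 1.78-fold and 1.82-fold. A gene was called higher or lower past 1.5-fold when the ratio of (TPM + 0.1) between libraries passed that fold, provided that 1 of them reached a TPM of 1. Log2 ratios include the added 0.1, by which they understate differences of low genes, and other ratios are of TPM alone. The 95% intervals were taken from the read numbers by the exact Clopper-Pearson method and cover counting error only, so they compare libraries and not conditions. Comparisons that share A375P or A375+DMSO are not independent of each other.

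**Figure D1:**
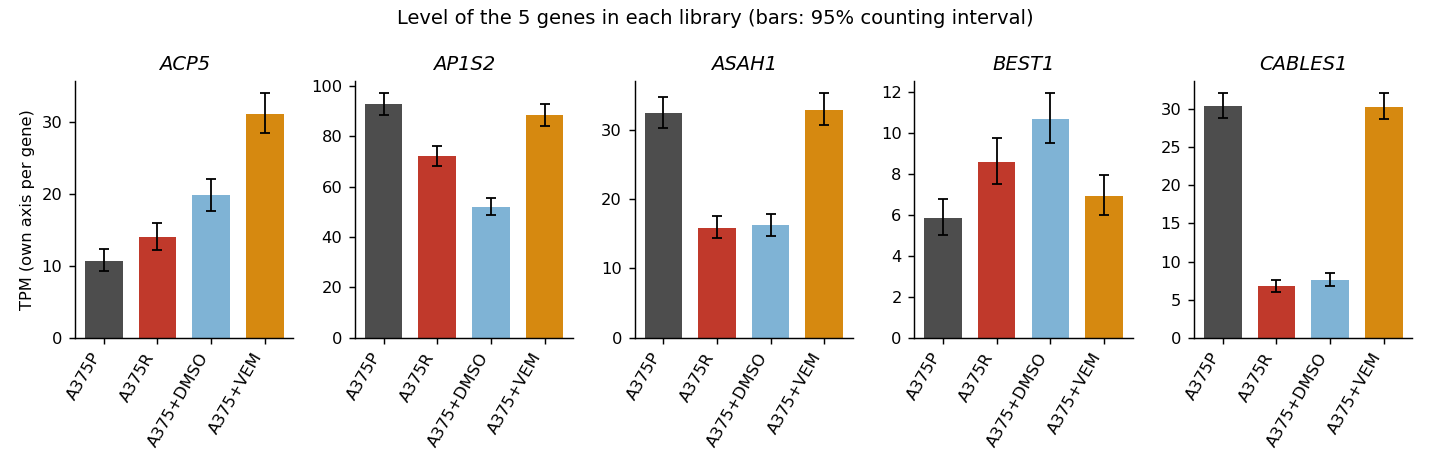
TPM of ACP5, AP1S2, ASAH1, BEST1 and CABLES1 in A375P, A375R, A375+DMSO and A375+VEM, 1 library each, with an own axis from 0 for each gene and bars for the exact 95% interval on the reads. ASAH1 and CABLES1 have high columns in A375P and A375+VEM and low ones in A375R and A375+DMSO, while ACP5 goes from 10.7 TPM in A375P to 31.2 TPM in A375+VEM.

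Of the 5 genes, 0 were higher and 2 were lower past 1.5-fold in A375R than in A375P, where 26.8% of the 1689 genes compared were higher and 17.5% lower. In A375+VEM against A375+DMSO, 4 were higher and 1 was lower, beside 26.5% and 19.7% of 1784 genes. With TMM scaling of the counts, the split over all genes went from 473 higher and 352 lower to 380 higher and 431 lower, and the 5 genes split into 3 and 1. A375+DMSO and A375P, both without vemurafenib, were also unlike in these genes, with 2 higher and 3 lower in A375+DMSO, beside 26.8% and 18.9% of 1720 genes. In both directions together 45.7% of genes passed 1.5-fold between these controls, against 20.5% between A375R and A375+DMSO. With 1 library each, the solvent, the cultures and a mistaken label cannot be told apart as the source of this difference, so each value of the resistant and the vemurafenib pair holds against its own control library only. Between A375R and A375+DMSO, 0 of the 5 passed 1.5-fold, beside 10.5% higher and 9.99% lower of 1702 genes. Between A375+VEM and A375P, a comparison added after the values were seen, 1 gene was higher and 0 lower, beside 36.9% and 25.3% of 1782 genes. The median log2 ratio of the 5 was -0.36 in A375R against A375P and 0.76 in A375+VEM against A375+DMSO, while over all genes compared it was 0.10 and 0.11, which scaling to a median ratio of 1 subtracts from every gene. It was -0.83 in A375+DMSO against A375P and -0.17 in A375R against A375+DMSO, beside 0.09 and 0.02 over all genes.

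**Figure D2:**
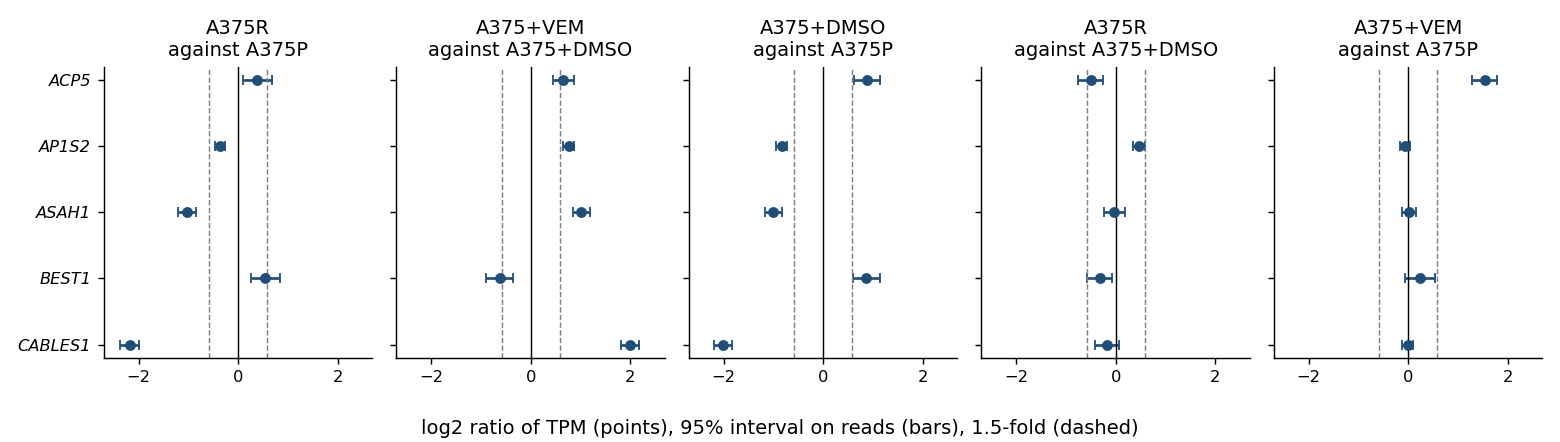
Log2 ratios of TPM of the 5 genes in 5 comparisons of libraries, as points with the exact 95% interval on the reads as bars, and dashed lines at 1.5-fold. CABLES1 lies near -2 in A375R and in A375+DMSO against A375P and near 2 in A375+VEM against A375+DMSO, and ACP5 is the gene past 1.5-fold in A375+VEM against A375P.

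ACP5 encodes tartrate-resistant acid phosphatase, an enzyme of lysosomes that is also secreted and is best known from osteoclasts. It spans bases 11685475 to 11689823 of chromosome 19, minus strand, in the coordinates of the authors' table, whose build the submitters' processing notes name as hg19. Its reads numbered 185 (A375P), 218 (A375R), 318 (A375+DMSO) and 497 (A375+VEM), and its TPM was 10.7, 14.0, 19.8 and 31.2 in that order. Each step in this order was larger than counting error, the smallest being A375R over A375P at 1.30-fold (95% interval 1.07 to 1.60). That step did not pass 1.5-fold and had a log2 ratio of 0.38. In the vemurafenib pair ACP5 was 1.57-fold higher with the drug (95% interval 1.36 to 1.82), a log2 ratio of 0.65 whose interval also holds ratios under 1.5. This call was lost when the libraries were scaled to a median ratio of 1, at 0.55, with DESeq2 size factors, also at 0.55, and with TMM, at 0.50. The solvent control itself was 1.84-fold above A375P (95% interval 1.53 to 2.22), so A375+VEM exceeded A375P by 2.90-fold (95% interval 2.44 to 3.45). A375R was below A375+DMSO, at a ratio of 0.708 (95% interval 0.593 to 0.844), and above A375P, so its direction depended on which library without vemurafenib it was set against.

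ASAH1 encodes acid ceramidase, the lysosomal enzyme that splits ceramide into sphingosine and a fatty acid and that is abundant in cells of the melanocyte lineage. It spans bases 17913808 to 17942507 of chromosome 8, minus strand. A375P gave 856 reads of it, A375R 379, A375+DMSO 399 and A375+VEM 805, or 32.4, 15.9, 16.2 and 32.9 TPM. The libraries thus fell into a high and a low pair. ASAH1 was lower in A375R than in A375P, at a ratio of 0.490 (95% interval 0.433 to 0.554) and a log2 ratio of -1.02. In the vemurafenib pair it was 2.03-fold higher with the drug (95% interval 1.80 to 2.30), a log2 ratio of 1.02. Within the low pair, A375R was at 0.981 times A375+DMSO (95% interval 0.850 to 1.13). Within the high pair, A375+VEM was at 1.01 times A375P (95% interval 0.921 to 1.12). Neither of these differed beyond counting error. The difference between A375+DMSO and A375P, at a ratio of 0.500 (95% interval 0.442 to 0.563), was close in size to those of the study's own pairs.

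AP1S2 encodes a small (sigma) subunit of the clathrin adaptor complex AP-1, which takes part in the delivery of cargo to maturing melanosomes. It spans bases 15843929 to 15873137 of chromosome X, minus strand, and its promoter window is the one with TCACGTG shown above. It was the most abundant of the 5 per length, with 1853 reads and 92.8 TPM in A375P. A375R had 1301 reads and 72.2 TPM, A375+DMSO 970 reads and 52.1 TPM, and A375+VEM 1638 reads and 88.6 TPM. A375P and A375+VEM were again the high libraries, and they did not differ beyond counting error, at a ratio of 0.954 for A375+VEM over A375P (95% interval 0.892 to 1.02). A375R, unlike for ASAH1, lay between, 1.39-fold above A375+DMSO (95% interval 1.27 to 1.51). Against A375P it was at a ratio of 0.777 (95% interval 0.723 to 0.835), a log2 ratio of -0.36 that did not pass 1.5-fold. Vemurafenib-treated cells had 1.70 times the AP1S2 level of the solvent control (95% interval 1.57 to 1.84), a log2 ratio of 0.76, and the solvent control was below A375P, at a log2 ratio of -0.83.

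BEST1 encodes bestrophin 1, a calcium-activated chloride channel of the retinal pigment epithelium, a tissue in which MITF is also active. It spans bases 61717356 to 61731935 of chromosome 11, plus strand. It was the least abundant of the 5 per length in A375P and A375+VEM, with 180 and 197 reads there, against 238 in A375R and 306 in A375+DMSO. That is 5.86 and 6.92 TPM, against 8.58 and 10.7 TPM. Its order from low to high was the reverse of that of AP1S2, although neither gene differed beyond counting error between A375P and A375+VEM. In the resistant pair BEST1 was 1.46-fold higher in A375R (95% interval 1.20 to 1.79), which did not pass the threshold at a log2 ratio of 0.54. It was lower in A375+VEM than in A375+DMSO, at a ratio of 0.648 (95% interval 0.539 to 0.778), an interval that also holds differences under 1.5-fold. That call, at a log2 ratio of -0.62, was lost with a pseudocount of 1, at -0.56. In A375+DMSO it was 1.82-fold above A375P (95% interval 1.51 to 2.20), while A375+VEM and A375P did not differ beyond counting error, at 1.18-fold (95% interval 0.960 to 1.45). In the GENCODE 29 annotation, exons of FTH1 on the other strand cover 14.2% of the exon bases of BEST1, more than a neighbour covers in any of the other 4 genes, where the share was at most 4.90%. FTH1, the heavy chain of ferritin, was not analysed here. Whether reads were counted by strand is not given in the sources used here, so reads of both genes cannot be told apart in that stretch.

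CABLES1 encodes an adaptor that links cyclin-dependent kinases to kinases that phosphorylate them. It spans bases 20714528 to 20840434 of chromosome 18, plus strand. A375P and A375+VEM had 1367 and 1263 reads, both at 30.4 TPM, whereas A375R had 273 reads at 6.73 TPM and A375+DMSO 317 at 7.57 TPM. The high and the low pair were the same as for ASAH1, and further apart. CABLES1 was lower in A375R than in A375P, at a ratio of 0.221 (95% interval 0.193 to 0.252), which is a 4.52-fold difference and a log2 ratio of -2.16. In the vemurafenib pair it was 4.01-fold higher with the drug (95% interval 3.54 to 4.55), a log2 ratio of 1.99. The level after vemurafenib was that of the untreated cells within counting error, at a ratio of 0.997 of A375+VEM to A375P (95% interval 0.923 to 1.08). The level in the resistant cells was that of the solvent control within counting error, at 0.890 (95% interval 0.754 to 1.05). A375+DMSO was at a ratio of 0.249 to A375P (95% interval 0.219 to 0.281), so the call in A375+VEM was present against A375+DMSO and absent against A375P.

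The split of A375P and A375+VEM from A375R and A375+DMSO was noticed after the values were seen, so it is given as a description. The lower of A375P and A375+VEM was past 1.5-fold above the higher of A375R and A375+DMSO for 2 of the 5 genes, CABLES1 at 3.97-fold and ASAH1 at 2.00-fold, beside 3.63% of 1817 genes. AP1S2 was split in the same sense, at 1.23-fold, and BEST1 in the opposite sense, at 1.24-fold. The opposite split past 1.5-fold held for 0 of the 5 and 4.29% of all genes. ACP5 had no such split, since its levels in A375R and A375+DMSO lay between those of A375P and A375+VEM.

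**Figure D3:**
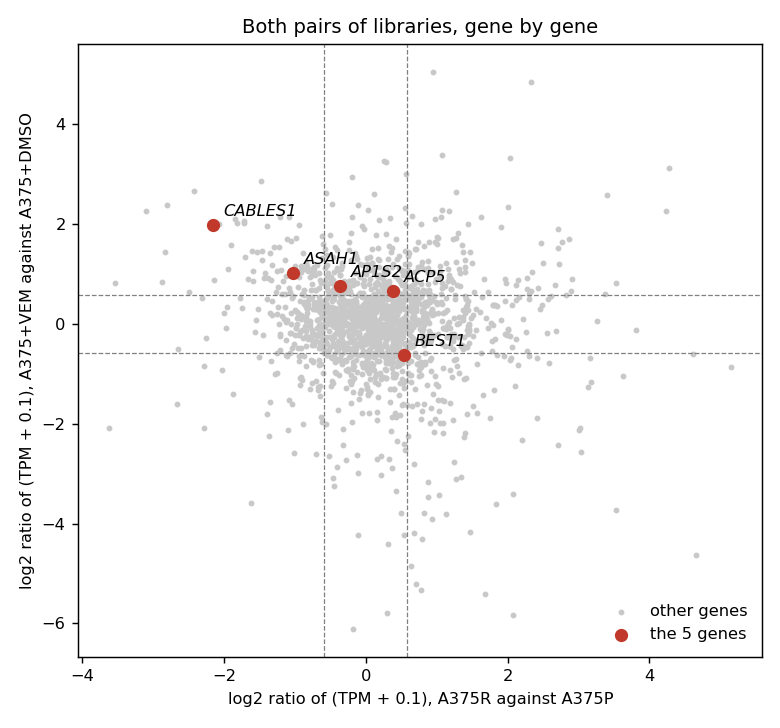
Log2 ratio of (TPM + 0.1) in A375R against A375P (horizontal) and in A375+VEM against A375+DMSO (vertical) for the 1656 genes compared in both pairs, with the 5 genes in red and dashed lines at 1.5-fold. CABLES1 and ASAH1 are past 1.5-fold in both, lower in A375R and higher in A375+VEM, and ACP5 is the one of the 5 above 0 in both.

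Likeness between profiles was measured as the Euclidean distance of log2(TPM + 0.1) over the 4 libraries, each gene centred on its own mean. Among the 5, AP1S2 and ASAH1 were closest, at 0.58, followed by ASAH1 and CABLES1 at 1.06, and BEST1 and CABLES1 were farthest, at 2.66. Among 1326 other genes whose mean TPM reached 5, those nearest to ACP5 included B9D1 at 0.16 and ADARB1 at 0.18. ASF1A at 0.11, ANKRD49 at 0.15 and ATXN1L at 0.16 were nearest to AP1S2. For ASAH1 they were the read-through locus ARHGAP27P1-BPTFP1-KPNA2P3 at 0.15, ABHD4 at 0.20 and AP5Z1 at 0.21. BEST1 had AGTPBP1 at 0.11, BIN3 at 0.13 and ABHD14A-ACY1 at 0.16. The profile of CABLES1 had no equally close neighbour, the nearest being C11orf94 at 0.54, ABCB9 at 0.69 and ATP6V0E1 at 0.72. With 4 libraries these distances describe the profiles and say nothing of shared control.

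Genes of the same families as the 5 went both ways. Of the 7 other AP-1 adaptor subunits, AP1G2 alone was higher past 1.5-fold in A375+VEM against A375+DMSO, at a log2 ratio of 1.52, AP1M2 alone was lower, at -1.22, and the median of the 7 was -0.17. In A375R against A375P 0 of the 7 were higher and 2 lower, AP1M2 at -0.94 and AP1S3 at -1.05. AP1S1 and AP1S3, the sigma subunits closest in role to AP1S2, were at -0.32 and -0.17 in the vemurafenib pair, where AP1S2 was at 0.76. Of the 5 other ceramidase genes, 3 had a TPM of at least 1, and none of these was higher past 1.5-fold in either pair. ACER2 was lower in both, at log2 ratios of -0.65 in A375R against A375P and -1.43 in A375+VEM against A375+DMSO, and ASAH2B was lower in the vemurafenib pair, at -1.07, where ASAH1 was at 1.02. ASAH2B has near-identical stretches with ASAH2, so its counts are uncertain. Of the acid phosphatases other than ACP5, 4 of 5 were compared. ACP2, a lysosomal acid phosphatase, was higher in the vemurafenib pair at 1.31, beside 0.65 for ACP5. In A375R against A375P, ACPP was 18.8-fold higher on low reads (95% interval 9.66 to 41.9) and ACP1 was lower, at -0.63. CABLES2, the one paralog of CABLES1, was at 0.55 in both pairs and past 1.5-fold in A375+DMSO against A375P, at 0.89, where CABLES1 was at -1.99. BEST2, BEST3 and BEST4 stayed under 1 TPM in all 4 libraries, so of the bestrophins BEST1 alone was compared. As given above, its reads cannot be told apart from those of FTH1 where their exons overlap.

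**Figure D4:**
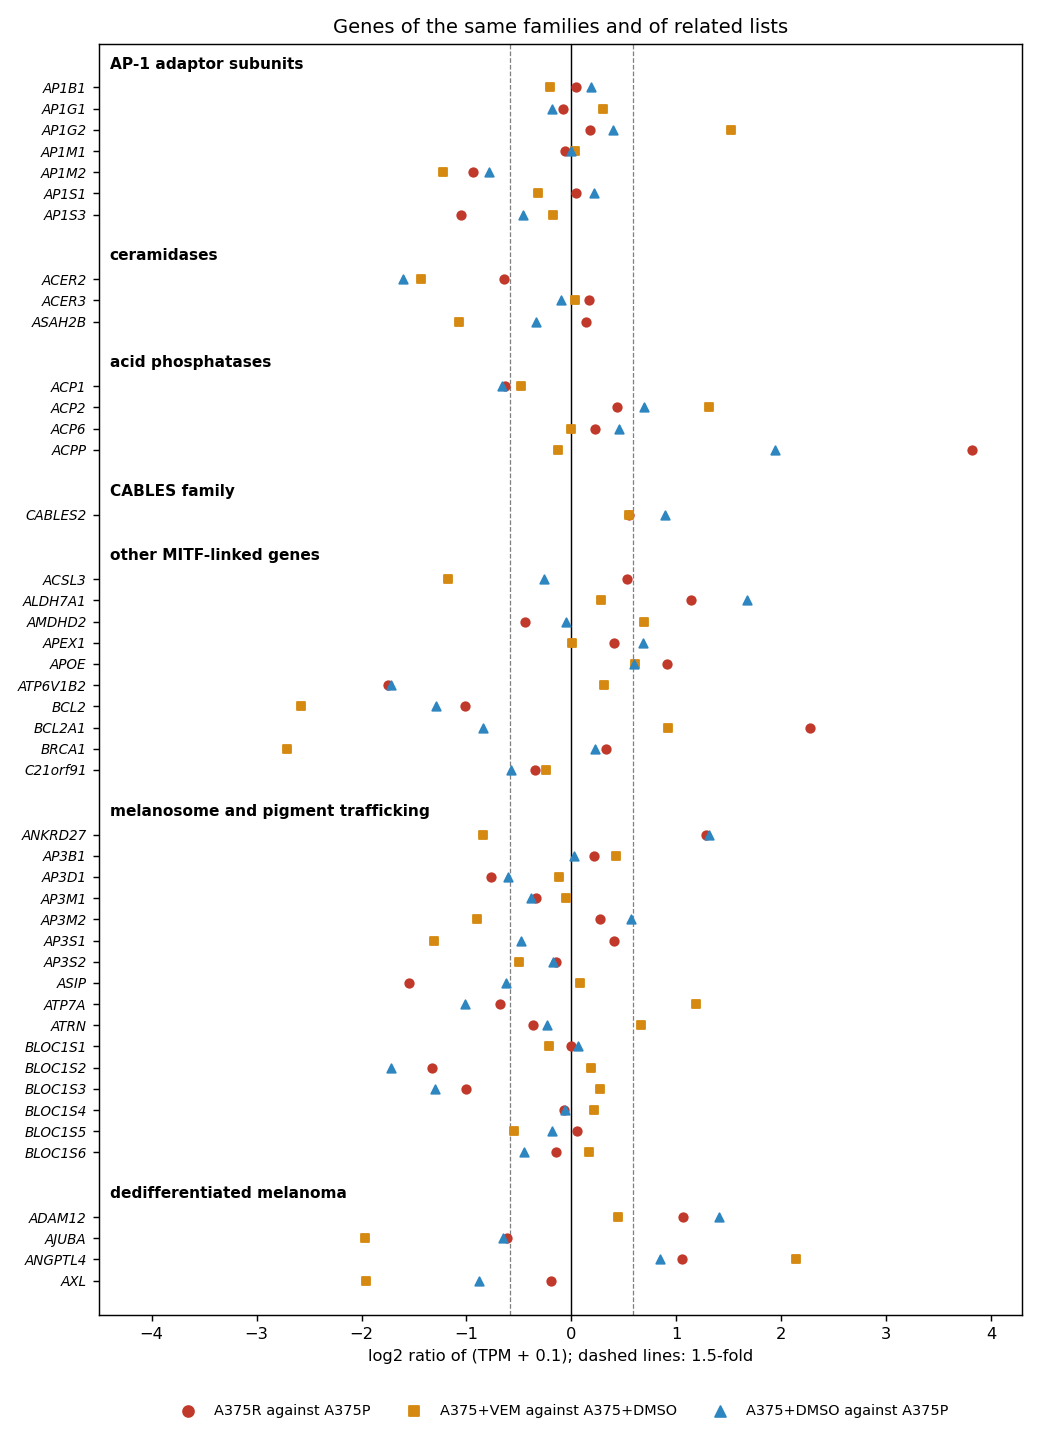
Log2 ratio of (TPM + 0.1) of 45 genes from the families of the 5 genes and from related lists, in A375R against A375P (circles), A375+VEM against A375+DMSO (squares) and A375+DMSO against A375P (triangles), with dashed lines at 1.5-fold. In every group with more than 1 gene the markers lie on both sides of 0, and AP1G2 at 1.52 and AP1M2 at -1.22 are on opposite sides in the vemurafenib pair.

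Of 13 other genes linked to MITF, 3 were higher and 2 lower past 1.5-fold in A375R against A375P among 10 compared, and 4 were higher and 3 lower in A375+VEM against A375+DMSO among 11. Over all genes the shares were 26.8% higher and 17.5% lower in the resistant pair and 26.5% and 19.7% in the vemurafenib pair. Their median log2 ratios were 0.37 and 0.29, beside 0.10 and 0.11 over all genes compared, where the 5 genes had -0.36 and 0.76. ATP6V1B2, a subunit of the lysosomal proton pump, was, like ASAH1 and CABLES1, higher in A375P than in A375R and A375+DMSO, with 140.1 TPM in A375P, 41.7 in A375R and 42.4 in A375+DMSO. It differed from them after vemurafenib, with 52.7 TPM in A375+VEM and a log2 ratio of 0.31. BCL2A1, a survival protein, was higher in both pairs, at log2 ratios of 2.28 and 0.92, the latter on 61 against 32 reads. Against A375P, BCL2A1 in A375+VEM was at 0.09. APOE, a lipid carrier, was also higher in both pairs, at 0.91 and 0.61. The interval of APOE in the vemurafenib pair (95% interval 1.27 to 1.84) also holds ratios under 1.5. BCL2 was lower in both, at -1.01 and -2.58, and the repair gene BRCA1 was lower in the vemurafenib pair, at -2.71. ALDH7A1, a dehydrogenase, was higher in A375R at 1.14, ACSL3, an acyl-CoA ligase, was lower in A375+VEM at -1.18, and AMDHD2, an enzyme of amino sugar breakdown, was higher there at 0.69. BIRC7, at 1.66 TPM or less and named here for its low reads, was also among the 4 higher in the vemurafenib pair. It had 18 reads in A375+VEM against 9 in A375+DMSO. Its ratio of 2.01 (95% interval 0.859 to 5.09) did not differ from 1 beyond counting error. The base excision repair enzyme APEX1 was at 0.41 and 0.01 and was past 1.5-fold in A375+DMSO against A375P, at 0.69.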

How the data were processed

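The authors deposited 1 table with a read count, a gene length and a TPM per gene for each of the 4 libraries. The deposited counts are raw whole numbers. The authors scaled TPM by the deposited gene length and the sum over the whole library, as TPM times length over count was constant within each library. HISAT2, HISAT, TopHat2, Bowtie2 and hg19 are named in the submitters' processing notes. The counting program, the annotation and the use of strand are not given in the sources used here. Over the 2864 genes used, counts summed to between 1891215 and 2054277 per library, which is not the library depth, and 1 row without values was left out.

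The 5 genes and all lists were chosen with earlier results of these data known. Libraries were compared by the ratio of (TPM + 0.1) at 1.5-fold, the fold of the study, with exact Clopper-Pearson intervals at 95% on the reads. Named besides the 5 were genes of their families, genes of 3 lists past 1.5-fold in 1 of 4 comparisons with a TPM of at least 5, and the 3 nearest profiles per gene, 1 of which is not reported here. The ratio and interval steps were first tested on simulated data. Alternatives were other pseudocounts, filters, thresholds and scalings. A375P as the control of A375+VEM was added after seeing the data. Promoters were from RefSeq and exon overlaps from GENCODE 29, both on GRCh38, and coordinates were not converted. TMM factors came from edgeR 4.0.16 and size factors from DESeq2 1.42.0 in R 4.3.3, and intervals from scipy 1.17.1 in Python 3.11.15 with pandas 2.3.3 and numpy 2.4.6. Plots were drawn with matplotlib 3.10.9.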

Additional observations from a re-analysis of the deposited data

Results flagged for a closer look

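For 4 of the 5 genes the acute pair and the resistant pair went in opposite directions. Of these, AP1S2 and BEST1 did not pass 1.5-fold in the resistant pair. The share of all genes with opposite directions at any size was not counted, so this is not read as a trait of the 5. The log2 ratio in A375+VEM against A375+DMSO minus that in A375R against A375P was 4.15 for CABLES1, 2.04 for ASAH1 and 1.13 for AP1S2, each lower in A375R and higher in A375+VEM. It was -1.16 for BEST1, which was higher in A375R and lower in A375+VEM. With 1 library per condition these differences were not tested. Past 1.5-fold in both pairs, the opposite directions held for CABLES1 and ASAH1, and for 200 of the 1656 genes compared in both pairs, 88 of them lower in A375R and higher in A375+VEM. Against A375P in place of A375+DMSO, the log2 ratio of A375+VEM was -0.0041 for CABLES1 and 0.02 for ASAH1. ACP5 was above 0 in both pairs.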

How the results depend on the processing

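No paired analysis was possible because each condition has 1 library, and for the same reason no library could be left out. Under the planned pseudocounts and scalings, all 20 log2 ratios of the 5 genes in the 4 planned comparisons kept their direction, and that of AP1S2 in the vemurafenib pair left its counting interval with TMM, at 0.62. With A375P as the control of A375+VEM, added after seeing the data, 1 of the 5 genes was past 1.5-fold in place of 5, and the log2 ratio turned to -0.068 for AP1S2, 0.24 for BEST1 and -0.0041 for CABLES1. At 2-fold, 2 of the 5 passed in the vemurafenib pair and 1 between A375+DMSO and A375P. Over all genes compared, 44.3% passed 1.5-fold in the resistant pair, 46.2% in the vemurafenib pair, 45.7% between A375+DMSO and A375P and 20.5% between A375R and A375+DMSO. In the same order 22.2%, 26.4%, 26.0% and 8.64% passed 2-fold, a higher threshold. Without the filter 1237, 1282, 1266 and 818 of 2864 genes passed 1.5-fold, or 43.2%, 44.8%, 44.2% and 28.6%, where 748, 825, 786 and 349 had passed with it. With a TPM of at least 5, the last comparison fell to 207 of 1340 genes, or 15.4%. Scaling to a median ratio of 1 gave 406 genes higher and 400 lower in the vemurafenib pair. The 180 reads or more behind each value bound counting error alone, and the spread between cultures is unknown.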

Other observations

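Genes of melanosome and pigment trafficking, 16 in the table and all compared, were 1 higher and 5 lower past 1.5-fold in the resistant pair (A375R against A375P), and 2 higher and 3 lower in the vemurafenib pair (A375+VEM against A375+DMSO). Over all genes compared, 26.8% were higher and 17.5% lower in the resistant pair, and 26.5% and 19.7% in the vemurafenib pair. The median log2 ratios of the 16 were -0.14 and 0.02, beside 0.10 and 0.11 over all genes compared. ATP7A, the copper pump that supplies tyrosinase, had the split of CABLES1 and ASAH1, with 9.67 TPM in A375P and 10.9 in A375+VEM against 5.98 in A375R and 4.74 in A375+DMSO. ANKRD27, which takes part in the transport of pigment enzymes, had the opposite split, as BEST1 did, with 12.6 and 17.5 against 30.7 and 31.4 TPM in that order. BLOC1S2 and BLOC1S3, subunits of a complex of melanosome formation, were lower past 1.5-fold in A375R, at 27.3 and 13.5 TPM against 68.6 and 27.1 TPM in A375P, with log2 ratios of 0.19 and 0.27 in the vemurafenib pair. AP3S1, a subunit of the adaptor AP-3, was lower in A375+VEM, at -1.31.

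Of 4 genes known as high in dedifferentiated melanoma, AXL, a receptor tyrosine kinase, had 659.2 TPM in A375P, 574.7 TPM in A375R, 358.3 TPM in A375+DMSO and 92.4 TPM in A375+VEM. AJUBA was also lower in A375+VEM than in A375+DMSO, at a log2 ratio of -1.97, and ANGPTL4 was higher, at 2.14. In all, 1 of the 4 was higher and 2 were lower past 1.5-fold in the vemurafenib pair, and 2 were higher and 1 was lower in the resistant pair, beside the shares over all genes given above. ADAM12, at 2.57 TPM or less and named after its values were seen, was at log2 ratios of 0.44 in the vemurafenib pair and 1.06 in the resistant pair.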
